A study of Mus musculus with 18 samples.

Results

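The genes described here are 60 genes of mitosis and chromosome segregation, read on Illumina mouse BeadChips from sorted mouse thymocytes. They were chosen by name, as listed parts of the mitotic machinery, with earlier results of these data known. A gene was kept when 1 of its probes had a deposited detection p-value under 0.05 on at least 3 of the 18 arrays. By that rule 58 of the 60 had a probe and 51 were measured, among 14165 gene symbols with a tested probe. Their 110 annotated probes included 83 that passed. The 51 measured genes are called the mitosis genes below.

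The arrays held RNA from 3 sorted stages of thymocyte: double-positive cells (DP, which carry both CD4 and CD8) and the single-positive cells that keep CD4 alone (CD4 SP) or CD8 alone (CD8 SP). Each was taken from wild-type C57Bl/6N animals (wt) and from a conditional knock-out (cKO), in which FoxN1-Cre deleted exon 3 of Gpr177, now named Wls, a carrier that WNT proteins need to leave the cell. FoxN1 drives Cre in thymic epithelium, so the sorted thymocytes were not the cells in which the deletion was made. Mice were 4 to 6 weeks old, no group carried a further treatment, and each of the 6 groups had 3 arrays. The labels do not say whether the 3 arrays of a group came from separate animals, so the p-values measure the spread between these samples, which may be technical.

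Mitosis is run by kinases that switch on the division program, by motor proteins that build the spindle, and by a checkpoint that holds sister chromatids together until every kinetochore is attached. Most of these genes are transcribed late in the cell cycle and are shut down in resting cells, which makes their RNA a common marker of dividing cells. In the thymus, division is concentrated in progenitors and in early DP cells, and most later DP and SP cells are at rest. In RNA from a sorted population, fewer dividing cells and less RNA in each dividing cell cannot be told apart.

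The late cell cycle program is known to use a pair of short promoter elements, the CCAAT box, bound by NF-Y, and the cell cycle genes homology region, with the letters TTTGAA. Both were searched on both strands of the 250 bases before each annotated start in RefSeq (GRCm38.p6), where 52 of the 60 listed genes had 57 windows. TTTGAA was present in 36.8% of these windows and in 16% of all 32851 windows, and CCAAT in 71.9% and 33.8%. Both were present together in 31.6% of the members' windows and in 5.55% of all windows. The windows of Prc1, Kif11 and Top2a, which were among the genes called lower in CD4 SP than in DP cells, and of Espl1, which was not, are shown for comparison. All are printed 5′ to 3′ along the gene's strand, with both elements in capitals on whichever strand they lie. A reverse complement thus reads TTCAAA for the homology region, or ATTGG where a CCAAT box lies on the other strand.
Prc1, chr7:80294226-80294475, plus strand, 1 of 2 annotated starts: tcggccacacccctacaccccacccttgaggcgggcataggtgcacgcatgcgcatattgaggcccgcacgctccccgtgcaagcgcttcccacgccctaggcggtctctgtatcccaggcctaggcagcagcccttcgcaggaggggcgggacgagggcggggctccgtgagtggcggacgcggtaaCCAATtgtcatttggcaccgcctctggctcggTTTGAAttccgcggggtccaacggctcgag
Kif11, chr19:37376132-37376381, plus strand: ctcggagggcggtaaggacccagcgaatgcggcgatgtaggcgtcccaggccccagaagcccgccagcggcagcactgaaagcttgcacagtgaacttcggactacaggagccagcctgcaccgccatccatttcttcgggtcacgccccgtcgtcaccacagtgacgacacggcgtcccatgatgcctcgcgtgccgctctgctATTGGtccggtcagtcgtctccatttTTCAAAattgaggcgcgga
Top2a, chr11:99024190-99024439, minus strand: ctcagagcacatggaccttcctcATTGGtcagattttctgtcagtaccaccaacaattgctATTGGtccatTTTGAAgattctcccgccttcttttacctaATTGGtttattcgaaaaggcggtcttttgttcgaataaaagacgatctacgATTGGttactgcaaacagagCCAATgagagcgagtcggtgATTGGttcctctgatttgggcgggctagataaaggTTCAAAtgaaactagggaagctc
Espl1, chr15:102296043-102296292, plus strand: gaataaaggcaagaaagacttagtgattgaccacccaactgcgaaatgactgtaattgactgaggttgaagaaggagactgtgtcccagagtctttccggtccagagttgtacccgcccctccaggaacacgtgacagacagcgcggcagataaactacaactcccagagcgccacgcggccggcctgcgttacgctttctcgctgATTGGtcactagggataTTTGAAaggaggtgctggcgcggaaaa
Prc1 held TTTGAA on the gene's strand 30 bases before its start, and Kif11 and Top2a held it on the other strand 19 and 23 bases before theirs. Espl1 held it 27 bases before its start, with a CCAAT box on the other strand. Of the 25 genes called in the 4 comparisons that involve CD4 SP cells, 23 had windows. TTTGAA stood in 34.6% of these and in 50% of the windows of the other measured members, CCAAT in 76.9% and 63.6%, and both together in 30.8% and 40.9%. These shares are of 26 and 22 windows and were not tested. A match to these letters is a description of the window and not a site of binding.

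Levels are log2 of normalised bead intensity throughout, on a scale whose offset keeps dim probes from falling much below 4.2. A probe of each array counted as detected at the p-value above. Between 45 and 49 of the 51 genes were detected on the DP wt arrays, 32 to 38 on the CD4 SP wt arrays and 43 to 48 on the CD8 SP wt arrays. The corresponding counts in cKO were 44 to 48, 28 to 36 and 45 to 48. The median level over the 51 genes lay between 7.17 and 7.35 on the DP wt arrays, between 5.52 and 5.98 on the CD4 SP wt arrays and between 7.05 and 7.63 on the CD8 SP wt arrays. In cKO it lay between 6.67 and 7.19, between 5.36 and 5.89, and between 6.69 and 7.40. In both genotypes every CD4 SP array was thus below every DP and CD8 SP array. The raw median bead intensity was 150.6 to 194.8 in DP wt, 164.2 to 185.6 in CD4 SP wt and 194.6 to 246.2 in CD8 SP wt. In cKO it was 132.6 to 230.7, 185.9 to 246.2 and 212.4 to 273.4. CD4 SP and DP arrays overlapped in it in both genotypes, but every CD8 SP wt array was above every CD4 SP wt array. Its part in the differences was not tested.

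**Figure D1:**
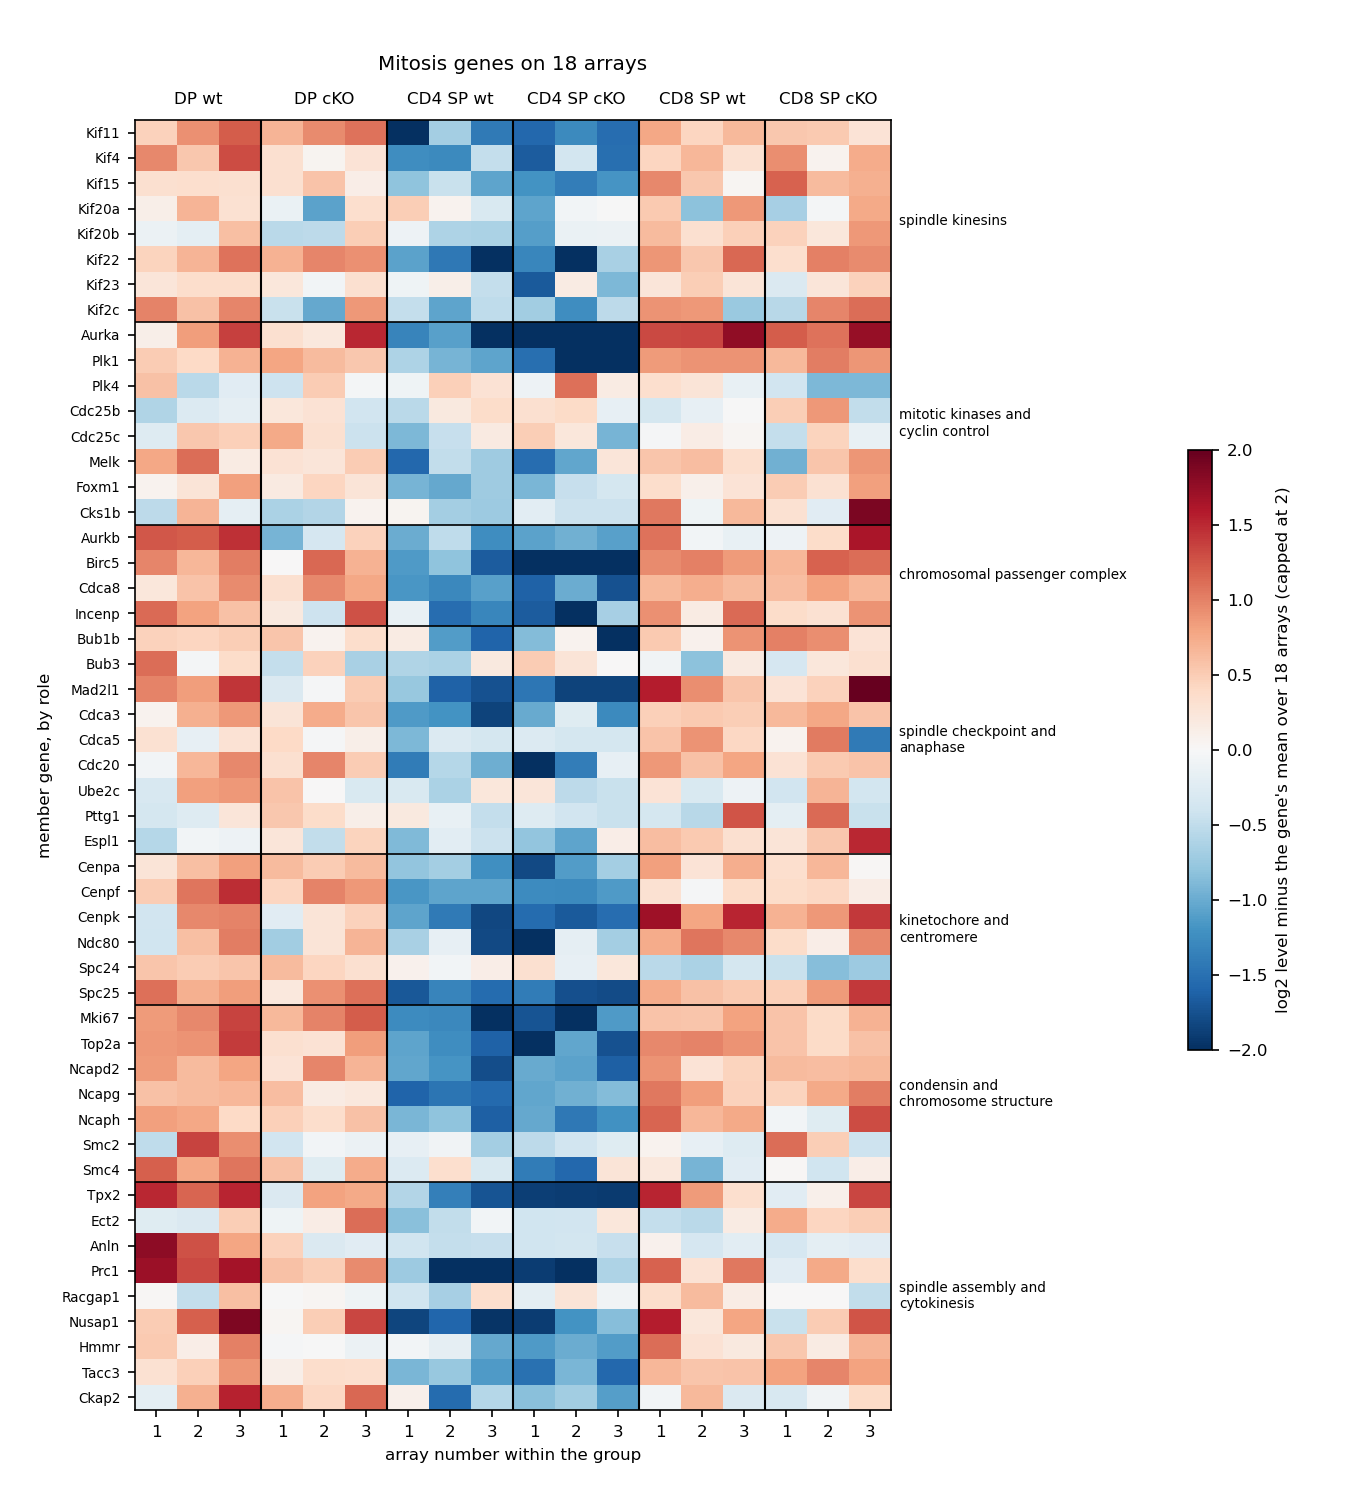
Log2 level of each of the 51 measured mitosis genes (vertical axis, grouped by role) on each of the 18 arrays (horizontal axis, 3 per group), as the difference from the gene's mean over the 18 arrays, with colours capped at 2. The CD4 SP columns of both genotypes are blue for most genes, and the DP and CD8 SP columns are red.

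Of the genes outside these counts, Ccnb1 (cyclin B) and Nuf2 (a kinetochore subunit) had no probe. Bub1, a checkpoint kinase, was detected on 2 arrays, Ttk and Cenpe on 1, and Kif18a, Ccnb2, Nek2 and Cks2 on 0. Just inside the rule stood Pttg1 on 3 arrays, Anln on 4, and Ube2c and Smc2 on 5 each. The filter bears on the comparisons below, since all 51 genes would have passed without any CD4 SP array, but only 35 on the CD4 SP arrays alone. Counts over the 51 are therefore descriptions and are read against the share of all 14165 genes.

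The first comparison set CD4 SP against DP cells in wt mice, the step at which selected thymocytes mature. The mitosis genes were broadly lower in CD4 SP cells, from the proliferation marker Mki67 through the kinases Plk1 and Aurkb to the cytokinesis factor Prc1. Of the 51 genes, 28 were called lower (limma adjusted p under 0.05) and 0 higher, against 3.11% of all genes called lower and 3.14% higher. The median log2 difference was -1.49, against 0.06 over all genes, and 49 of 51 genes lay below 0, where 44.7% of all genes did. With genes undetected in a group at their bound it was -1.45. On the 3 BeadChips, each of which held all 6 groups, the medians were -1.21, -1.47 and -1.94. For 36 of the 51 the 3 CD4 SP values lay below the 3 DP values, which was so for 10.6% of all genes. Of the 28 called genes, 15 had several tested probes, and all of those probes were lower.

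Mki67, which coats mitotic chromosomes and is the usual marker of cycling cells, had DP wt levels of 9.93, 10.04 and 10.43. Its CD4 SP wt levels were 7.83, 7.80 and 7.08. All 3 CD4 SP arrays were at least 2 log2 units under every DP array, and Mki67 fell 5.92-fold (log2 difference -2.57 ± 0.29 SE, limma adjusted p = 1.74e-05). Top2a, the topoisomerase that untangles chromosomes before they part, had levels of 7.89, 7.92 and 8.44 in DP wt and 5.98, 5.79 and 5.41 in CD4 SP wt. The groups did not overlap, and Top2a fell 5.12-fold (-2.36 ± 0.29, limma adjusted p = 5.76e-05). In the same class the condensin subunits Ncapd2, Ncapg and Ncaph, which compact chromosomes, fell 4.25-fold, 4.49-fold and 3.43-fold. The condensin ATPases Smc2 and Smc4 were not called (limma adjusted p = 0.258 and 0.166). Smc4 was at -1.09, and Smc2, which no CD4 SP wt array detected, was at least 1.55-fold lower on average, so 5 of the 7 genes for chromosome structure were called lower.

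Plk1, the kinase that drives entry into and exit from mitosis, had DP wt levels of 9.36, 9.26 and 9.55 and CD4 SP wt levels of 8.24, 7.93 and 7.80. The groups did not overlap, and Plk1 fell 2.64-fold (-1.40 ± 0.25, limma adjusted p = 0.00144). Aurka, the spindle pole kinase, fell 5.76-fold and Foxm1, a transcription factor that activates late cell cycle genes, 2.41-fold, which made 3 of 8 kinases and regulators of cyclin-dependent kinase. The fall of Foxm1 missed the threshold when only the groups compared were fitted (limma adjusted p = 0.0507). A second Foxm1 probe had levels of 7.48, 7.82 and 8.51 in DP wt and 5.68, 5.36 and 5.24 in CD4 SP wt. Cdc25b, a phosphatase that activates cyclin-dependent kinase, was at 0.36, and Plk4, the kinase of centriole duplication, at 0.28. Neither was called, and a second Cdc25b probe was at -0.75.

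The chromosomal passenger complex corrects faulty attachments to the spindle, and all 4 of its genes were called lower. Its kinase Aurkb had levels of 6.87, 6.82 and 7.07 in DP wt and 4.63, 5.11 and 4.38 in CD4 SP wt, where 1 of 3 arrays detected it. It fell 4.64-fold (-2.21 ± 0.43, limma adjusted p = 0.00318). Birc5 (survivin), its targeting subunit, had levels of 9.35, 9.04 and 9.40 in DP wt and 7.23, 7.57 and 6.70 in CD4 SP wt. It fell 4.27-fold (-2.09 ± 0.29, limma adjusted p = 0.000157), and neither gene's groups overlapped. Cdca8 (borealin) fell 3.38-fold and the scaffold Incenp 3.56-fold, but Incenp was not called without array 1 or 2 of DP wt or array 2 or 3 of CD4 SP wt (limma adjusted p = 0.0850, 0.0559, 0.101 and 0.0845).

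Of the 8 spindle kinesins, 4 were called lower. Kif11, the motor that pushes the spindle poles apart, fell 4.71-fold, Kif22, which pushes chromosome arms toward the equator, 6.18-fold, and the chromosome-bound Kif4 3.83-fold. Kif15, a motor that backs up Kif11, fell 2.14-fold, a call that was lost without array 1 or array 3 of CD4 SP wt (limma adjusted p = 0.0522 and 0.0816). The cytokinesis motors Kif20a, Kif20b and Kif23 were at -0.28, -0.55 and -0.46, and the depolymerase Kif2c at -1.53 (limma adjusted p = 0.102), none of them called. Kinetochore genes were called lower for 4 of 6. Cenpa, the histone variant that marks the centromere, fell 2.74-fold, and Cenpf, a large outer kinetochore protein, 4.32-fold, while its other probes were at -0.05 and -0.92. No CD4 SP wt array detected Cenpk or Spc25, subunits of the inner and outer kinetochore, so their falls are given as at least 3.02-fold and at least 4.34-fold. Their means were 6.51 ± 0.79 and 7.01 ± 0.20 in DP wt (SD, n = 3), against 4.56 ± 0.38 and 4.60 ± 0.18 in CD4 SP wt.

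Among checkpoint and anaphase genes 3 of 9 were called lower. They were Mad2l1, which carries the checkpoint signal (5.52-fold), Cdca3, which helps to destroy the mitosis inhibitor Wee1 (3.82-fold), and Cdc20, the activator of the anaphase-promoting complex (2.84-fold). The call of Cdc20, made on its brightest probe, stood at a limma adjusted p of 0.0482. It was lost without 1 array in 15 of 18 cases, in which that p reached 0.167. The other tested Cdc20 probes were also lower, and the mean over its probes gave a limma adjusted p of 0.00029. The separase Espl1 was at -0.27 and its inhibitor Pttg1, which no array of either group detected, at -0.02. Among spindle assembly and cytokinesis genes 5 of 9 were called lower. Prc1, which bundles the microtubules of the midzone, had the largest fitted fall of the 51 genes. Its DP wt levels were 8.54, 8.14 and 8.49. Its CD4 SP wt levels were 6.09, 4.57 and 4.37, where 1 of 3 arrays detected it, so its fold includes levels at background. It fell 10.4-fold (-3.38 ± 0.45, limma adjusted p = 0.000106), and a second probe was at -2.25. Tpx2, which activates Aurka on the spindle, fell 6.18-fold and Tacc3, which crosslinks spindle fibres, 2.81-fold. Tpx2, Mad2l1, Kif4 and Incenp were also detected on 1 of 3 CD4 SP wt arrays, so their folds include levels at background. Aurka and Ncaph were detected on 2 of 3 of these arrays, so their folds include a level at background. Nusap1, a microtubule stabiliser, and Anln, the anillin of the cleavage furrow, were not detected on any CD4 SP wt array and fell at least 6.23-fold and at least 2.03-fold.

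**Figure D2:**
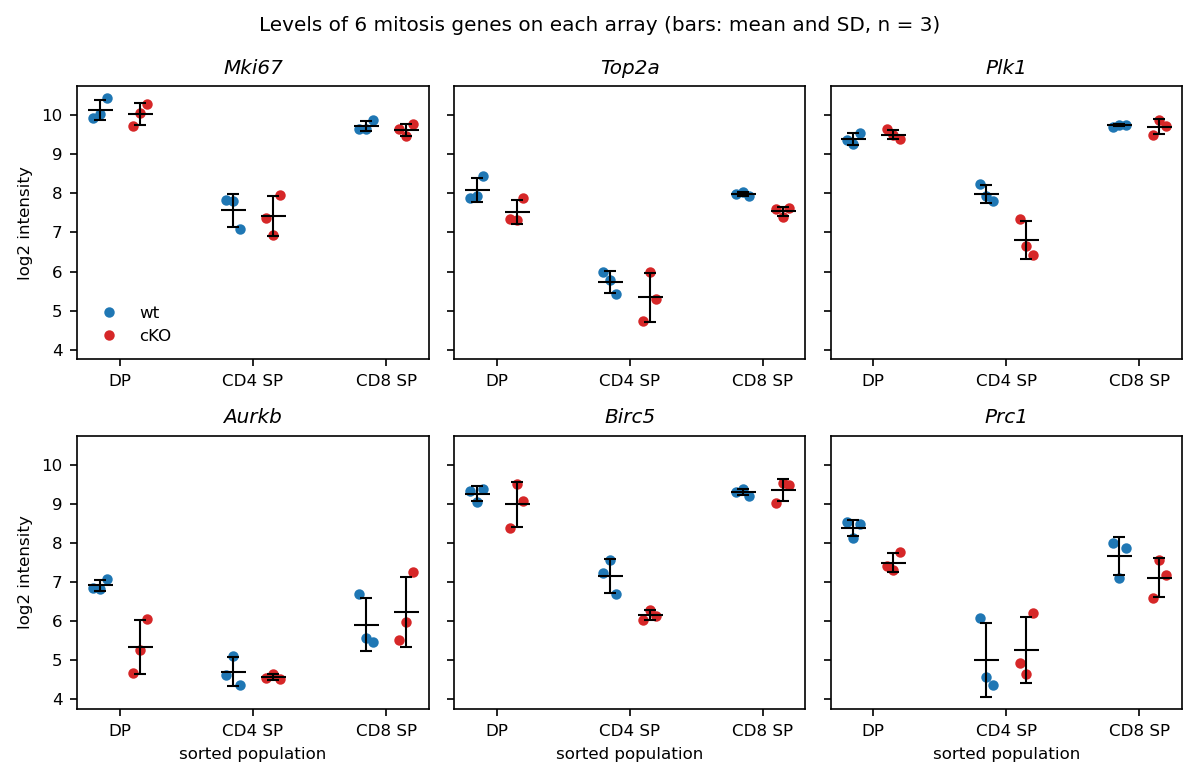
Log2 intensity of Mki67, Top2a, Plk1, Aurkb, Birc5 and Prc1 on each array by sorted population, with wt in blue and cKO in red, and bars for the mean and SD of 3 arrays. In all 6 panels the CD4 SP wt points lie under all DP wt and CD8 SP wt points. For Top2a, Aurkb and Prc1 the DP cKO points lie under the DP wt points, and none of these differences was called.

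The second comparison set the 2 single-positive populations against each other, and most mitosis genes stood higher in CD8 SP cells. In wt, 26 of 51 mitosis genes were called higher in CD8 SP than in CD4 SP cells and 0 lower, against 2.04% of all genes called higher and 1.53% lower. The median log2 difference was 1.35, against 0.04 over all genes, with 1.47, 1.18 and 1.41 on the 3 BeadChips. This comparison uses the same CD4 SP wt arrays as the one above, so their values stand side by side and are not independent of each other. The 3 CD8 SP values lay above the 3 CD4 SP values for 35 of 51 genes, against 12.2% of all genes.

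Mki67 levels in CD8 SP wt were 9.65, 9.64 and 9.89, all above every CD4 SP wt array, a 4.46-fold difference (2.16 ± 0.29, limma adjusted p = 0.000320). Top2a stood at 7.99, 8.03 and 7.92 and was 4.77-fold higher (2.25 ± 0.29, limma adjusted p = 0.000287), although its other probes were at 0.76 and 0.01. Plk1 stood at 9.71, 9.76 and 9.76, 3.38-fold higher (1.76 ± 0.25, limma adjusted p = 0.000498). For these genes the 3 CD8 SP arrays differed among themselves by less than they differed from any CD4 SP array. Birc5 levels were 9.31, 9.38 and 9.22, and it was 4.39-fold higher (2.13 ± 0.29, limma adjusted p = 0.000372). Aurkb levels were 6.70, 5.56 and 5.47, above the 3 CD4 SP values without passing the test (1.21 ± 0.43). Aurka had the largest fitted difference, 9.41-fold (3.23 ± 0.45, limma adjusted p = 0.000485). It was detected on 2 of 3 CD4 SP wt arrays, so this fold includes a level at background.

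By role the called genes were 4 of 8 kinesins (Kif11, Kif4, Kif15 and Kif22), 3 of 8 kinases and regulators (Aurka, Plk1 and Foxm1) and 3 of 4 passenger genes (Birc5, Cdca8 and Incenp). They were also 3 of 9 checkpoint and anaphase genes (Mad2l1, Cdca3 and Cdc20), 4 of 6 kinetochore genes (Cenpa, Cenpf, Cenpk and Spc25), 5 of 7 chromosome structure genes and 4 of 9 spindle assembly genes (Tpx2, Prc1, Nusap1 and Tacc3). Cenpk was at least 5.32-fold, Nusap1 at least 4.96-fold and Spc25 at least 3.62-fold higher than in CD4 SP cells, where no wt array detected them. The call held for 21 of the 26 when any single array was left out. It was lost in some of these fits for Kif4, Kif15, Foxm1, Incenp and Cdc20, each of them without array 1 of CD8 SP wt (limma adjusted p = 0.0703, 0.0623, 0.0674, 0.132 and 0.107). Without array 1 of CD4 SP wt the values for Kif4, Foxm1 and Cdc20 were 0.103, 0.0597 and 0.145, and without its array 2 those for Kif4, Foxm1 and Incenp were 0.0970, 0.0650 and 0.169. Other single arrays also ended calls of these genes except Kif15, with the highest p for Incenp without array 3 of CD8 SP wt (limma adjusted p = 0.166).

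Between CD8 SP and DP cells of wt mice the mitosis genes differed in both directions. The median log2 difference, CD8 SP minus DP, was -0.07, against 0.14 over all genes, and 28 of 51 genes were lower, against 39.9% of all genes. Of the 51 genes, 2 were called lower and 0 higher, against 4.12% of all genes called lower and 3.68% higher. The count called lower was thus near the share of all genes. Anln was detected on 3 of 3 DP wt arrays (6.41, 5.89 and 5.42) and on 0 of 3 CD8 SP wt arrays (4.71, 4.29 and 4.41), a fall of at least 2.00-fold (limma adjusted p = 0.00257). Spc24, a subunit of the outer kinetochore, was at -1.04 ± 0.21 (limma adjusted p = 0.00558), with a second probe at 0.53, and the mean over its probes did not pass (limma adjusted p = 0.510). The next smallest p belonged to Cenpf (-0.80 ± 0.25, other probes 0.67 and -0.46), Smc4 (-1.33 ± 0.42), Aurkb (-1.01 ± 0.43) and Cenpk (0.81 ± 0.36), with a limma adjusted p between 0.0595 and 0.192. Mki67 was at -0.41 ± 0.29, Top2a at -0.10 ± 0.29, Plk1 at 0.35 ± 0.25 and Birc5 at 0.04 ± 0.29. Dimmer probes of Mki67 and Top2a did not all follow these values. One Mki67 probe was at 7.30, 7.06 and 7.53 in DP wt and at 6.22, 5.96 and 6.01 in CD8 SP wt. One Top2a probe was at 6.03, 6.67 and 6.60 in DP wt and at 5.24, 5.85 and 5.09 in CD8 SP wt. The remaining Mki67, Top2a and Birc5 probes overlapped between the populations. The mitosis genes spanned -1.44 to 0.81 in this comparison, and a missed threshold does not show that a gene had the same level in both populations.

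Markers of the DP stage were not at the same level in both SP populations, and their part in these differences was not tested. With 7 of the 8 DP stage markers measured, their summed normalised intensity was 9322 to 10120 in DP wt, 277.8 to 752.7 in CD4 SP wt and 3507 to 3701 in CD8 SP wt. Without Cd8b1, which CD8 SP cells make themselves, the sums were 6108 to 6952, 163.9 to 361.7 and 1538 to 1939. Rag1, a recombinase of receptor gene assembly, averaged 11.86 ± 0.10 in DP wt, 7.21 ± 0.18 in CD4 SP wt and 9.82 ± 0.06 in CD8 SP wt (SD, n = 3), and its partner Rag2 was detected on 0 SP arrays. Markers of double-negative and immature single-positive cells (7 of 12 measured), a dividing stage that can carry CD8, summed to 261.9 to 398.8 in DP wt, 387.6 to 463.2 in CD4 SP wt and 462.0 to 778.9 in CD8 SP wt. In CD8 SP cKO these markers summed to 374.5 to 573.2, which overlaps wt. Of the 7, 5 were lower and 2 higher in CD8 SP cKO than in CD8 SP wt. Of these 0 were called, as 0% of all genes were. Kit, a receptor among them, averaged 5.48 ± 0.57 in CD8 SP wt, where 3 of 3 arrays detected it. It averaged 4.58 ± 0.14 in CD8 SP cKO, where 0 of 3 did. Markers of SP maturation (5 of 7 measured) summed to 186.2 to 280.9, 2660 to 2968 and 1369 to 1809 in the 3 wt populations.

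The cKO comparisons share no array with those of wt, but all arrays were normalised together and fitted with a common variance per gene. Calls in wt and cKO are therefore not independent of each other. In cKO, CD4 SP cells were again the lowest of the 3 populations in most of the mitosis genes. In CD4 SP against DP cells 26 of 51 mitosis genes were called lower and 0 higher, against 2.74% of all genes called lower and 2.44% higher, with a median of -1.36 against 0.04 over all genes. Of 14 called genes with several tested probes, 12 had all probes lower, while Kif15 and Cenpf each had a probe above 0 (0.06 and 0.21). Of the 28 genes called in wt, 25 (89.3%) were called here, and they made 96.2% of the 26. The log2 differences in wt and cKO correlated at r = 0.80 across the 51 genes, which are not independent replicates. Mki67 in cKO was at 9.73, 10.07 and 10.30 in DP cells and at 7.36, 6.93 and 7.95 in CD4 SP cells (-2.62 ± 0.29, limma adjusted p = 1.40e-05). Aurka had the largest fitted fall, 9.16-fold. It was detected on 2 of 3 CD4 SP cKO arrays, so this fold includes a level at background. Plk1 fell 6.52-fold with levels of 9.64, 9.49 and 9.39 in DP cKO and 7.34, 6.64 and 6.42 in CD4 SP cKO. Foxm1, Aurkb and Anln were called in wt and not in cKO, and Ckap2, a microtubule-associated protein, in cKO and not in wt. For none of these was the interaction of genotype and population called. The missing Foxm1 call is that of its brightest probe. A second Foxm1 probe had levels of 7.57, 7.82 and 7.68 in DP cKO and 4.85, 4.99 and 4.49 in CD4 SP cKO. Without 1 array, 19 of the 26 kept their call in every case. Without array 3 of DP cKO the calls of Ckap2, Incenp, Nusap1, Mad2l1 and Kif4 were lost (limma adjusted p = 0.148, 0.151, 0.119, 0.0861 and 0.0770). Without array 1 of CD4 SP cKO those of Ckap2, Incenp, Nusap1, Kif4 and Cdc20 were (0.0885, 0.0941, 0.109, 0.123 and 0.0593), and without its array 3 those of Cdca3, Kif4, Mad2l1 and Ckap2 were (0.0523, 0.0985, 0.0562 and 0.113). The remaining losses came from other arrays of the same groups, with the highest p for Incenp without array 2 of CD4 SP cKO (limma adjusted p = 0.132).

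**Figure D3:**
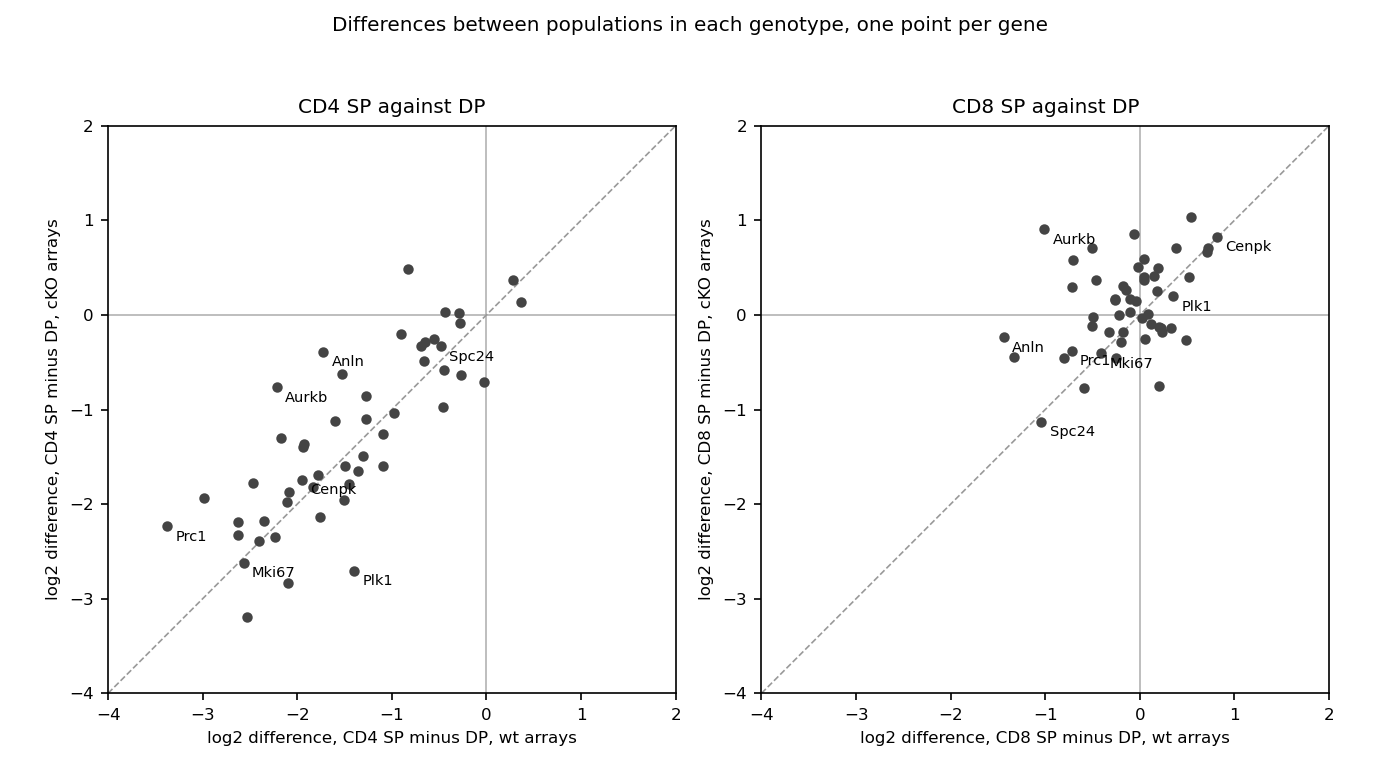
Log2 difference between populations in cKO arrays (vertical axis) against the same difference in wt arrays (horizontal axis), with a point for each of the 51 mitosis genes and the line of equal values dashed. Against DP, CD4 SP differences reach from 0.36 down to -3.38 in wt and lie along the line, and CD8 SP differences gather around 0.

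In CD8 SP against CD4 SP cells of cKO mice 29 mitosis genes were called higher, against 2.53% of all genes, and 1 lower, against 1.52%. The median was 1.54, and all 26 genes called in wt were among the 30 (86.7% of them), with r = 0.86 across the 51 genes. Birc5 was 9.18-fold higher, with levels of 9.04, 9.55 and 9.49 in CD8 SP cKO against 6.05, 6.29 and 6.14 in CD4 SP cKO (3.20 ± 0.29, limma adjusted p = 5.84e-06). Aurka was 14.5-fold and Plk1 7.49-fold higher, where the Aurka fold again includes a level at background in CD4 SP cKO. The 4 genes called here and not in wt were Hmmr (at least 2.39-fold higher), Aurkb (at least 2.59-fold), Espl1 (2.53-fold, limma adjusted p = 0.0478) and Spc24. The lower call was Spc24 again (-0.80 ± 0.21, limma adjusted p = 0.0445), whose second probe was at 0.99. Of 17 called genes with several tested probes, 14 had probes of 1 sign, and the exceptions were Spc24, Kif4 (a probe at -0.00) and Cenpf (a probe at -0.07). For 20 of the 30 the call held in every fit with 1 array left out. Without array 3 of CD8 SP cKO it was lost for Espl1, Nusap1, Aurkb, Spc24, Incenp, Cdc20, Prc1, Foxm1 and Ncaph, with a limma adjusted p from 0.0603 (Ncaph) to 0.211 (Espl1). Kif22 was lost without array 2 of CD8 SP cKO or of CD4 SP cKO (0.0545 and 0.0616). Other arrays of these groups took the value to 0.183 (Nusap1, without array 1 of CD4 SP cKO), and calls of Espl1, Spc24 and Nusap1 were also lost without arrays of other groups. Apart from this, 17 of the 51 genes were called when only the groups compared were fitted. In CD8 SP against DP cells of cKO mice 1 gene was called, Spc24 (-1.13 ± 0.21, limma adjusted p = 0.00304, second probe 0.26), against 3.57% of all genes called lower, and the median was 0.14, on the other side of 0 from wt. Between wt and cKO the differences of CD8 SP from DP correlated at r = 0.40 across the 51 genes and had the same sign in 28 of them. Tacc3 (0.59 ± 0.24), Cenpk (0.83 ± 0.36), Cks1b, a small adaptor of cyclin-dependent kinase (1.04 ± 0.46), Plk4 (-0.75 ± 0.35) and Aurkb (0.91 ± 0.43) followed and missed the threshold.

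Across both genotypes 25 genes were called in the 4 comparisons that involve CD4 SP cells. That count rests on shared CD4 SP arrays within each genotype and on a variance per gene common to all arrays. Of the 25 genes, 15 kept all 4 calls whichever array was left out. They were the motor Kif11, the kinases Aurka and Plk1, the passenger genes Birc5 and Cdca8, and the kinetochore genes Cenpa, Cenpf, Cenpk and Spc25. The others were Mki67, Top2a, the condensin subunits Ncapd2 and Ncapg, and the spindle factors Tpx2 and Tacc3. Kif4, Kif15, Kif22, Incenp, Mad2l1, Cdca3, Cdc20, Ncaph, Prc1 and Nusap1 made up the 25 and lost at least 1 of the 4 calls in some of these fits.

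Genes of the same pathway outside the 60 were read from a list of further mitosis genes (61 of 82 measured) and a list of DNA replication genes (27 of 30 measured). Both lists were also chosen with earlier results of these data known. In wt, 15 of the 61 were called lower in CD4 SP than in DP cells and 0 higher, against the 3.11% and 3.14% of all genes. Among them were Pbk, a mitotic kinase (-2.69 ± 0.38), and Aspm, a spindle pole protein that no CD4 SP wt array detected (at least 5.42-fold lower). In CD8 SP against CD4 SP cells 13 of the 61 were called higher, against 2.04% of all genes, with Pbk at 2.92 ± 0.38. Gtse1, a microtubule-bound regulator of p53 that no CD4 SP wt array detected, was at least 5.12-fold higher. Of the 27 replication genes, 10 were called lower in CD4 SP than in DP cells and 20 higher in CD8 SP than in CD4 SP cells, read against the same shares. Uhrf1, which maintains DNA methylation at the fork, was at -2.05 ± 0.27 in the first and 2.38 ± 0.27 in the second. In CD8 SP against DP cells 3 replication genes were called higher in wt, namely Mcm3 of the replicative helicase (1.51 ± 0.34), the uracil glycosylase Ung (1.14 ± 0.26) and Gins2, a helicase cofactor (1.07 ± 0.31). The share of all genes called higher there was 3.68%. In cKO 9 replication genes were, against 3.34% of all genes. The replication list had a median of 0.56 in that wt comparison where the mitosis genes had -0.07 and all genes 0.14.

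The last comparison asked whether loss of Wls from the epithelium went with a different level of these genes in the thymocytes. No mitosis gene was called in any of the 3 populations, over their mean, or in the test of genotype by population interaction (limma adjusted p over 0.05), and 0% of all 14165 genes were called in each. At an unadjusted p under 0.05, limma counted 4 lower and 0 higher in DP, where 3.21% and 4.50% of all genes were. It counted 3 lower and 1 higher in CD4 SP, against 3.54% and 3.75%, and 1 in each direction in CD8 SP, against 2.17% and 2.14%. The interaction counted 4 of 51 against 4.29% of all genes, with the smallest p at Plk1 (unadjusted 0.00292). By sign, 37 of 51 genes were lower in cKO DP cells, where 44.4% of all genes were. The median was -0.19 against 0.05 over all genes, and -0.08, -0.30 and -0.23 on the 3 BeadChips.

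The 6 genes of smallest p in DP cells were Anln, Aurkb, Mad2l1, Tpx2, Kif4 and Kif2c, all of them lower in cKO and none past the threshold. Anln levels were 6.41, 5.89 and 5.42 in DP wt and 5.09, 4.33 and 4.40 in DP cKO, where 1 of 3 arrays detected it (-1.30 ± 0.26, limma adjusted p = 0.173). Aurkb levels were 6.87, 6.82 and 7.07 in DP wt and 4.68, 5.28 and 6.07 in DP cKO (-1.58 ± 0.43, limma adjusted p = 0.346). The groups of both genes were separate, as they were, in the lower direction, for 9 of 51 genes against 5.22% of all genes. Mad2l1 was at -1.02 ± 0.42, Tpx2 at -0.97 ± 0.42, Kif4 at -0.72 ± 0.34 and Kif2c at -1.05 ± 0.52. A dimmer Kif4 probe was at 6.08, 6.19 and 5.79 in DP wt and at background in DP cKO (4.61, 4.64 and 4.54). The remaining Kif4 probe overlapped between the genotypes. Of the genes described in every group, the brightest probes of Mki67, Plk1 and Birc5 overlapped between the genotypes in DP cells and that of Top2a did not. Mki67 levels were 9.73, 10.07 and 10.30 in cKO against 9.93, 10.04 and 10.43 in wt. A dimmer Mki67 probe was separate, at 6.26, 6.23 and 6.65 in cKO against 7.30, 7.06 and 7.53 in wt. The remaining Mki67 probe overlapped. Top2a levels were 7.34, 7.33 and 7.87 in cKO, each below the wt values of 7.89, 7.92 and 8.44. Plk1 levels were 9.64, 9.49 and 9.39, and Birc5 levels 8.38, 9.53 and 9.07.

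In CD4 SP cells 32 of 51 genes were lower in cKO, where 47.5% of all genes were, with a median of -0.13 against 0.02. The medians on the 3 BeadChips were -0.35, -0.13 and 0.03, and 24 of 51 were lower on the third. In these dim cells 7 genes were undetected in 1 genotype and 6 in both. With those 6 at 0 and the 7 at their bound, or at 0 where there was none, the median was 0. Plk1 had the smallest p, with levels of 8.24, 7.93 and 7.80 in wt and 7.34, 6.64 and 6.42 in cKO. The groups were separate, and the difference was -1.19 ± 0.25 (limma adjusted p = 0.275), which was called with a variance trend and robust moderation (limma adjusted p = 0.0116) and in none of the other 28 alternatives. Birc5 was next, with 7.23, 7.57 and 6.70 in wt and 6.05, 6.29 and 6.14 in cKO (-1.01 ± 0.29, limma adjusted p = 0.470), and its other probes were at -0.12 and -0.77. The condensin gene Ncapg was higher (0.58 ± 0.23), with a second probe at -0.25. Hmmr, a spindle protein that also binds hyaluronan, was detected on no CD4 SP cKO array and was at least 1.30-fold lower there on average. Smc4 was at -0.82 ± 0.42 and Kif23 at -0.66 ± 0.35, and none of these passed. Mki67 levels in cKO (7.36, 6.93 and 7.95), Top2a levels (4.73, 5.99 and 5.29) and Aurkb levels (4.54, 4.66 and 4.53) overlapped those of wt.

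In CD8 SP cells 28 of 51 genes were lower in cKO, where 50.3% of all genes were, with a median of -0.07 against -0.00. The medians on the 3 BeadChips differed in sign, at -0.36, 0.12 and 0.04. The genes of smallest p were Plk4 (-0.88 ± 0.35) and Ect2, which activates the small GTPase of the cleavage furrow. No CD8 SP wt array detected Ect2, which was at least 1.65-fold higher in cKO on average. Racgap1, the partner of Ect2, followed at -0.53 ± 0.30, the cohesin protector Cdca5 at -0.73 ± 0.42, Ncaph at -0.52 ± 0.34 and Top2a at -0.44 ± 0.29. All 6 had a limma adjusted p of 1, and the other Top2a probes were at 0.39 and 0.21. Mki67 levels of 9.65, 9.47 and 9.77 and Plk1 levels of 9.50, 9.89 and 9.74 in CD8 SP cKO overlapped those of wt. Aurkb levels were 5.51, 5.98 and 7.25 and Birc5 levels 9.04, 9.55 and 9.49, and both overlapped wt as well.

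**Figure D4:**
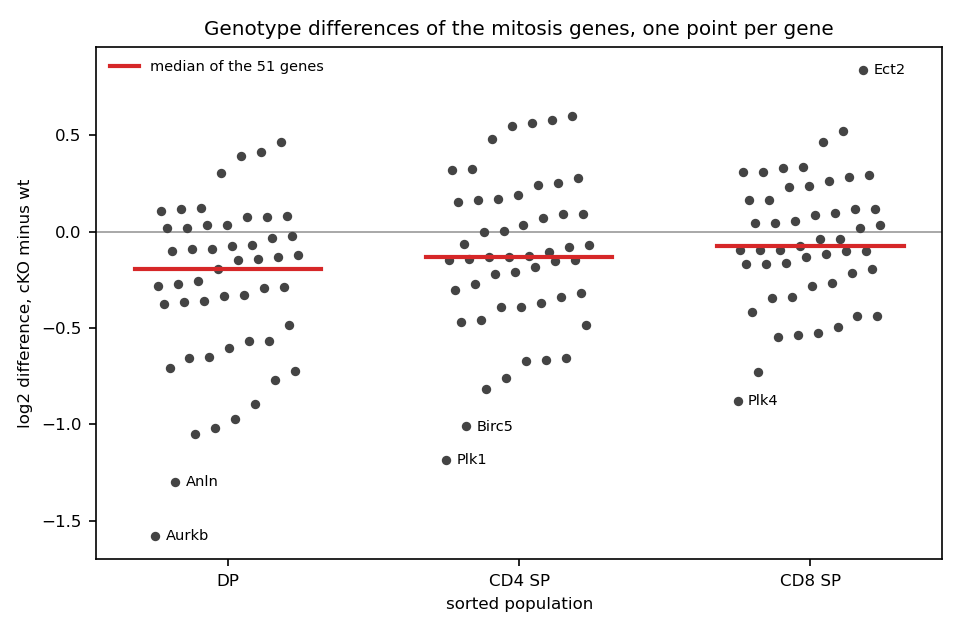
Log2 difference, cKO minus wt (vertical axis), of the 51 mitosis genes in each sorted population (horizontal axis), with a point per gene and the median of the 51 as a red line. From left to right the red lines stand at -0.19 (DP), -0.13 (CD4 SP cells) and -0.07 (CD8 SP cells), and the named genes at the edges did not pass the test.

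Over the mean of the 3 populations the smallest p belonged to Tpx2 (-0.71 ± 0.24), Anln (-0.45 ± 0.15), Top2a (-0.47 ± 0.17), Ect2 (0.51 ± 0.20), Plk1 (-0.37 ± 0.14) and Hmmr (-0.45 ± 0.18). Their limma adjusted p lay between 0.286 and 0.358. Some groups behind these means had no array that detected the gene, so the values of Anln (all 4 SP groups), Ect2 (both SP groups of wt), Tpx2 and Hmmr (CD4 SP cKO) include levels at background. At an unadjusted p under 0.05, 6 were lower and 1 higher, against 4.77% and 5.77% of all genes. By sign 39 of 51 were lower, against 45.7%. The median of the 51 genes was -0.14, and on the 3 BeadChips it was -0.27, -0.14 and 0.02, so the third BeadChip did not share the sign of the other two. Tpx2 was at -1.61 and -0.55 on the first and the second and at 0.02 on the third. Ect2 was positive on each, at 0.60, 0.51 and 0.41.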

How the data were processed

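RNA of 18 samples in 6 groups was read on Illumina mouse BeadChips. The authors deposited a mean bead intensity per probe and array, without background subtraction, beside a deposited detection p-value. The scanner software, the method of the detection p-value and the authors' normalization of the series matrix intensity are not given in the sources used here. The intensities were corrected and quantile normalised with neqc in limma 3.58.1 (R 4.3.3; offset 16, background from the detection p-value), and log2 values were fitted with lmFit and eBayes on all 18 arrays as 6 group means (12 residual degrees of freedom). Of 46237 probes, the 26676 detected (p-value under 0.05) on 3 or more arrays were tested, with Benjamini-Hochberg adjustment over all of them at 0.05. The number of arrays and their signal over background limit the precision.

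Symbols came from the platform annotation (35784 probes with 1). A gene was its tested probe with the highest mean, and 22 of the members had several. In each comparison called members whose 3 values lay apart from the other group's were named, up to 30, and otherwise the 6 of smallest p; Mki67, Top2a, Plk1, Aurkb and Birc5 were named throughout. Members and lists were chosen with earlier results of these data known. A fold against a group in which no array detected the probe is a bound, from each array's lowest detected signal. Summed marker intensities have the offset subtracted.

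Per the file headers, label numbers 1 to 3 were 3 BeadChips, each with the 6 groups at the same 6 positions, so position and group cannot be told apart. Deviations of same-numbered arrays from their group means correlated between -0.15 and 0.31 (median 0.05, 45 pairs, 11 over 0.1), and the pairing rests on the shared BeadChip. Promoter sequences were from RefSeq, GRCm38.p6, and figures were drawn with matplotlib 3.10.9.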

Additional observations from a re-analysis of the deposited data

How the results depend on the processing

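With the BeadChip number as a replicate block, 29 members were called in CD4 SP against DP of wt, 27 in CD8 SP against CD4 SP of wt, 27 and 31 in the same comparisons of cKO, 3 and 1 in CD8 SP against DP of wt and cKO, and 0 between genotypes, and it ended no call made without it. Leaving out each array gave 25 to 29, 21 to 27, 21 to 27, 21 to 30, 2 to 3, 1 and 0. In CD8 SP against DP of wt, the 2 called members became 5 with the series matrix values, 4 without background correction, with an offset of 50 or with a variance trend and robust moderation, and 1 with median scaling or a detection p-value under 0.01. In CD8 SP against DP of cKO, the 1 became 2 without background correction and 0 with median scaling, with the mean over probes or with only the groups compared. The 30 of CD8 SP against CD4 SP in cKO became 17 with only the groups compared. Between genotypes, 1 (Plk1) was called in CD4 SP with the variance trend. With the mean over probes, Top2a in CD8 SP, cKO minus wt, turned to 0.0563 and Spc24 in CD8 SP minus CD4 SP of cKO to 0.0972. Their probes differ in sign. Leaving out the cKO arrays of number 3, chosen after seeing the data, gave 21 and 20 calls in CD4 SP against DP and CD8 SP against CD4 SP of cKO. Median scaling moved the median of all probes to 0.21 in CD8 SP against DP of wt, from 0.09, and to 0.12 in CD8 SP against CD4 SP of wt, from 0.02, and in CD8 SP against DP of cKO, from 0.01. Members close to background, such as Pttg1, Smc2 and Ect2, are limited by their signal.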
